A study of Mus musculus with 5 samples.

Results

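E2F binding regions that lay close together were described in mouse embryonic fibroblasts, a primary culture of connective tissue cells taken from embryos. Chromatin immunoprecipitation followed by sequencing (ChIP-seq) had located 3 E2F proteins, with 1 library and 1 peak list each. The peaks of the 3 lists were pooled, peaks that overlapped by at least 1 bp were merged into regions, and a region was a member when its edge lay within 10 kb of the edge of another region on the same chromosome. This gave 1380 members of 7852 regions (17.6%, 95% Wilson interval 16.7 to 18.4). They formed 642 clusters, a cluster being a chain of regions separated by gaps of at most 10 kb. The other 6472 regions are called isolated below.

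The cells overexpressed E2F1, E2F3A or E2F3B and came from mice of mixed FVB/NT, 129S1/Svlmj and C57BL/6NT background. They proliferated asynchronously in medium with 10% serum, with no further treatment in the labels. What drove the overexpression, and whether a line was a clone, is not given in the sources used here. An anti-E2F1 antibody gave the E2F1 library, and the same anti-E2F3 antibody both the E2F3A and the E2F3B library, and this antibody does not separate the isoforms or tell them from E2F3 of the cells' own gene. Libraries with the genotypes 1-/- and 3-/-, precipitated with the same antibodies, were not analysed here. Since each protein was measured in a single library, no spread between replicates could be had, and because peak positions chose the members, their values are given as a description with no test. The lists hold no expression values, so the cell type was not checked against marker genes. Wilson intervals cover counting error of regions only and treat regions as independent, although regions of a cluster share their surroundings. The lists carry no read counts, so the depth is unknown, and absence from a list means only that no peak was called, not that the protein was absent.

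E2F proteins are transcription factors that bind DNA as dimers with a DP protein and regulate genes that a cell needs to enter the cell cycle and copy its DNA. E2F1, E2F3A and E2F3B can be held inactive by the retinoblastoma protein, and E2F3A and E2F3B are made from 1 gene through different promoters and differ at their N-terminus. E2F proteins are known to bind mostly near gene starts, and gene starts can lie close together, as at promoters that point in opposite directions and in families of neighbouring genes. Genes, motifs and sequences at the clusters were not analysed here, because no genome or annotation of mm9, the build of the peak lists, was used.

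Most clusters were pairs. Of the 642 clusters, 566 (88.2%) held 2 regions, 62 held 3, 10 held 4, 3 held 5 and 1 held 7. Pairs accounted for 1132 of the 1380 members (82.0%), and the 14 clusters of 4 or more regions for 62. From the first to the last edge, a cluster spanned a median of 3864 bp (quartiles 1522 and 7573 bp), with a range of 506 to 23471 bp. Merged regions covered a median of 27.8% of a cluster's span. Isolated regions had their nearest region at a median of 80.9 kb (quartiles 34.9 and 186 kb). For 2824 of them (43.6%) no other region lay within 100 kb.

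The gaps inside clusters were concentrated below 1 kb. The 738 gaps had a median of 2416 bp and quartiles of 353 and 5962 bp. There were 281 gaps of up to 1 kb, of which 166 measured up to 300 bp, against 457 gaps spread over the range from 1 to 10 kb. Counted per kb of distance, this was 281 pairs in the first kb and 50.8 pairs per kb from 1 to 10 kb. Adjacent regions farther apart than a cluster allows numbered 44.5 pairs per kb from 10 to 20 kb and 38.9 per kb from 20 to 30 kb. The count per kb was thus several-fold higher in the first kb than anywhere else up to 30 kb, where single kb held between 32 and 66 pairs. The division at 1 kb used in the following comparisons was chosen after these gaps were seen.

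**Figure D1:**
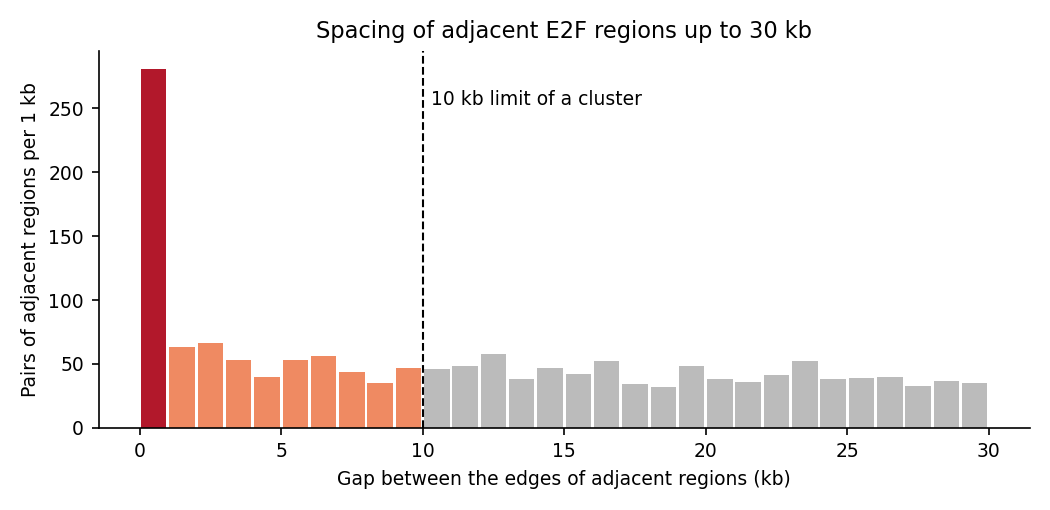
Number of pairs of adjacent merged regions (vertical axis) in each kb of the gap between their edges (horizontal axis, kb), over all 3 lists. Red marks gaps up to 1 kb, orange 1 to 10 kb and grey the pairs beyond the 10 kb limit; the first kb holds 281 pairs and no other kb more than 66.

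The limit of 10 kb fell in a flat stretch of the distances. The largest gaps inside it were 9926, 9952 and 9953 bp, and the smallest outside it 10002, 10021 and 10044 bp. There were 47 gaps between 9 and 10 kb and 46 between 10 and 11 kb. The 146 regions with their nearest region at 8 to 10 kb had a median width of 490.5 bp, and 47 of them were called in 2 or 3 lists. The 170 regions with their nearest region at 10 to 12 kb had a median width of 439 bp, and 50 of them were called in 2 or 3 lists.

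Each list contributed to the clusters. Of the 4704 E2F3B peaks, 937 lay in clustered regions (19.9%, interval 18.8 to 21.1). For E2F1 it was 672 of 3787 peaks (17.7%, interval 16.6 to 19.0), and for E2F3A 323 of 1998 peaks (16.2%, interval 14.6 to 17.8). The order of these shares follows the length of the lists, and a longer list offers more neighbours. When each list was limited to its 1998 widest peaks, the shares were 13.4% for E2F3B, 13.2% for E2F1 and 10.3% for E2F3A. Without the E2F3B list 10.8% of the regions were clustered, in 261 clusters.

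Peaks of a single list also lay close to one another, most often for E2F3B. When each list was taken alone, 837 E2F3B peaks (17.8%, interval 16.7 to 18.9) had another E2F3B peak within 10 kb. The share was 9.72% for E2F1 (368 peaks, interval 8.81 to 10.7) and 5.56% for E2F3A (111 peaks, interval 4.63 to 6.65). These shares also follow the length of the lists (4704, 3787 and 1998 peaks). Whether their order holds with lists of equal length was not tested. E2F3B peaks formed 447 adjacent pairs within 10 kb, and 251 of these (56.2%) were at most 1 kb apart, with a median gap of 580 bp over all 447. E2F1 peaks formed 193 such pairs, 68 of them (35.2%) within 1 kb, with a median gap of 2715 bp. E2F3A peaks formed 58 pairs, 20 of them (34.5%) within 1 kb. Beyond the first kb the pairs of the E2F3B list fell to 21.8 per kb up to 10 kb and 18.2 per kb from 10 to 20 kb. Those of E2F1 fell to 13.9 and 13.5 per kb, and those of E2F3A to 4.22 and 3.4 per kb. Some same-list neighbours lay inside 1 merged region, bridged by a peak of another list. This applied to 91 of the 447 E2F3B pairs, 14 of the 58 E2F3A pairs and 4 of the 193 E2F1 pairs.

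The proteins of the clustered regions differed from those of isolated regions in E2F3B, which was called more often. E2F3B was called in 922 of the 1380 clustered regions (66.8%, interval 64.3 to 69.2) and in 57.0% of isolated regions (interval 55.8 to 58.2), with 58.7% over all regions. E2F1 was called in 671 clustered regions (48.6%, interval 46.0 to 51.3) and in 48.1% of isolated ones, with 48.2% over all regions. E2F3A was called in 320 clustered regions (23.2%, interval 21.0 to 25.5) and in 25.7% of isolated ones (interval 24.7 to 26.8), with 25.3% over all regions. For E2F1 and E2F3A the intervals of clustered and isolated regions met, and for E2F3B they did not.

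Regions called for E2F3A alone were the set that clustered least. Of these 1100 regions, 116 were clustered (10.5%, interval 8.87 to 12.5). The share was 15.5% for the 2082 regions of E2F1 alone (interval 14.0 to 17.1) and 19.7% for the 2784 regions of E2F3B alone (interval 18.3 to 21.2). Regions called for E2F3A together with another protein were clustered more often, at 22.0% of the 642 regions of all 3 proteins (interval 18.9 to 25.3), 23.8% of the 185 regions of E2F3A and E2F3B (interval 18.2 to 30.4) and 33.3% of the 57 regions of E2F1 and E2F3A (interval 22.5 to 46.3). Regions of E2F1 and E2F3B reached 18.8% of 1002 (interval 16.5 to 21.3). By value, E2F3A therefore stood at both ends of this order, depending on whether another E2F was called in the same region. Only the interval of E2F3A alone met that of no other set. The intervals of all 3 proteins and of E2F3A with E2F3B met those of E2F3B alone and of E2F1 with E2F3B. The share of E2F1 with E2F3A rested on 19 clustered regions, and its interval met that of all 3 proteins.

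Shared calls were somewhat more frequent in clusters. Of the clustered regions, 392 were called in 2 or 3 lists (28.4%, interval 26.1 to 30.8), against 23.1% of isolated regions (interval 22.1 to 24.1) and 24.0% of all regions. All 3 lists called 141 clustered regions (10.2%, interval 8.73 to 11.9), against 7.74% of isolated regions (interval 7.11 to 8.42) and 8.18% of all regions. The difference in regions called in 2 or 3 lists was 5.32 points. When only the 50% widest peaks per list were kept it was 2.20 points, and it was 2.03 points without the E2F3A list. The interval of the difference ran from 2.78 to 7.96 points, and it included 0 in both these alternatives and with lists of equal length (3.50 points).

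The distance to the nearest region showed where these differences lay. The share of regions called in 2 or 3 lists was 28.5% with a neighbour within 1 kb, 28.3% with the nearest at 1 to 10 kb, 26.8% at 10 to 100 kb and 18.2% beyond 100 kb. The intervals of the first 3 of these shares met one another (24.9 to 32.4, 25.4 to 31.5 and 25.4 to 28.3), and the last (16.9 to 19.7) met none of them. In this respect, the difference between clustered and isolated regions lay with the most remote isolated regions and not at the 10 kb limit. Regions of E2F3B alone made up 47.8% of the regions with a neighbour within 1 kb (interval 43.6 to 52.0), but 34.6% at 1 to 10 kb, 35.2% at 10 to 100 kb and 33.7% beyond. Their excess in clusters thus lay within the first kb. Regions of E2F3A alone were 4.78% within 1 kb (interval 3.28 to 6.91), 10.8% at 1 to 10 kb, 12.6% at 10 to 100 kb and 18.6% beyond 100 kb (interval 17.2 to 20.1). Regions of E2F1 alone were 18.9% within 1 kb (interval 15.9 to 22.4) and between 25.4% and 29.5% at the greater distances.

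**Figure D2:**
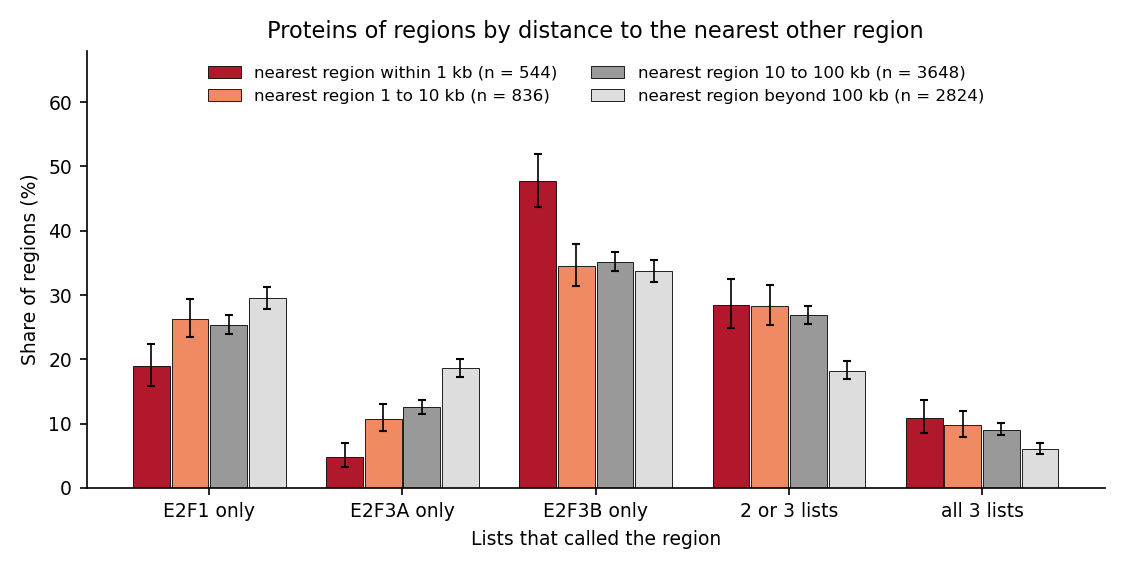
Share of regions (vertical axis, %) called for 1 protein alone, in 2 or 3 lists, or in all 3 lists, with regions divided by the distance to their nearest region; error bars are 95% Wilson intervals. E2F3B alone stands out within 1 kb at 47.8%, E2F3A alone falls to 4.78% there, and calls in 2 or 3 lists drop to 18.2% only beyond 100 kb.

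Which proteins sat next to each other was read from the 738 pairs of adjacent regions inside clusters. The most frequent pair joined a region of E2F1 alone to a region of E2F3B alone (127 pairs, 17.2%, interval 14.7 to 20.1), with a median gap of 2835 bp. This was its share outside clusters as well, at 17.4% of pairs 10 to 100 kb apart (interval 16.1 to 18.9). Next came 2 regions of E2F3B alone (123 pairs, 16.7%, interval 14.2 to 19.5), against 12.4% of pairs at 10 to 100 kb (interval 11.2 to 13.7). They lay closer, at a median of 574 bp. A region of E2F3B alone was also the neighbour in 79 pairs with a region of E2F1 and E2F3B (10.7%, against 10.5% at 10 to 100 kb) and in 67 pairs with a region of all 3 proteins (9.08%, against 6.82%, with intervals that met). Pairs of 2 regions of E2F1 alone numbered 48 (6.50%, against 6.12% at 10 to 100 kb), with a median gap of 3244 bp. Pairs of E2F3A alone with E2F3B alone numbered 47 (6.37%, against 8.41% at 10 to 100 kb). Those of E2F3A alone with E2F1 alone numbered 31 (4.20%, against 6.31%), and those of 2 regions of E2F3A alone 5 (0.678%, against 1.73%). These 3 shares were lower in clusters, with intervals that met. Regions of E2F3A alone were 8.41% of clustered regions and 12.6% of those with the nearest region at 10 to 100 kb. Of the pairs whose 2 shares are given here, only that of E2F3B alone with E2F3B alone had a share in clusters whose interval did not meet that at 10 to 100 kb. Regions of E2F3B alone were themselves 39.8% of clustered regions and 35.2% of those with the nearest region at 10 to 100 kb. Whether the share of such pairs goes beyond this was not tested.

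The share of neighbours with a protein in common was higher in the first kb and from 1 to 2 kb than in the ranges beyond, with intervals that in part met. In 207 of the 281 pairs up to 1 kb apart (73.7%, interval 68.2 to 78.5) at least 1 protein was called in both regions, which means that its list held separate peaks on both sides of the gap. The share was 64.3% of the 457 pairs at 1 to 10 kb (interval 59.8 to 68.6), 63.7% of the 2711 pairs at 10 to 100 kb (interval 61.9 to 65.5) and 56.2% of the 4383 pairs beyond. The interval within 1 kb met that at 1 to 10 kb and not those at the greater distances. Within the range from 1 to 10 kb the share was uneven. It was 76.2% of the 63 pairs at 1 to 2 kb (interval 64.4 to 85.0), at the level of the first kb, then 60.6% at 2 to 3 kb, 63.4% at 3 to 5 kb, 59.3% at 5 to 7.5 kb and 67.0% at 7.5 to 10 kb. Clustered pairs as a whole reached 67.9% (interval 64.4 to 71.2), 4.18 points above pairs at 10 to 100 kb. The interval of this difference ran from 0.293 to 7.93 points. It included 0 in 10 of the 14 alternatives, among them merging within 500 bp (0.932 points), lists of equal length (1.20 points), leaving out the E2F3B list (1.84) or the E2F3A list (1.89), the 50% widest peaks (2.18) and neighbours within 20 kb (2.68). The difference between clustered pairs and pairs at 10 to 100 kb was thus not separated from 0 under most settings. The frequency of E2F3B also changed with distance. It was called in 75.2% of regions with a neighbour within 1 kb and in 61.4% with the nearest at 1 to 10 kb. At 10 to 100 kb it was 61.3%, and beyond 100 kb 51.6%. Whether the shares of pairs with a protein in common go beyond such frequencies was not tested.

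Pairs of regions each called for a single protein differed between the first kb and the range beyond it. Both regions were called for the same protein in 83 of the 281 pairs within 1 kb (29.5%, interval 24.5 to 35.1), 70 of which joined 2 regions of E2F3B alone. At 1 to 10 kb it was 93 of 457 pairs (20.4%, interval 16.9 to 24.3), 53 of them of E2F3B alone. The regions were called for different single proteins in 64 pairs within 1 kb (22.8%, interval 18.3 to 28.0) and 141 pairs at 1 to 10 kb (30.9%, interval 26.8 to 35.2). At 10 to 100 kb these shares were 20.3% and 32.2%. Between the first kb and the range up to 10 kb, the intervals met for different proteins and did not meet for the same protein. Regions of E2F3B alone were also more frequent with a neighbour within 1 kb (47.8%) than with the nearest at 1 to 10 kb (34.6%). Whether the pair shares go beyond this was not tested.

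**Figure D3:**
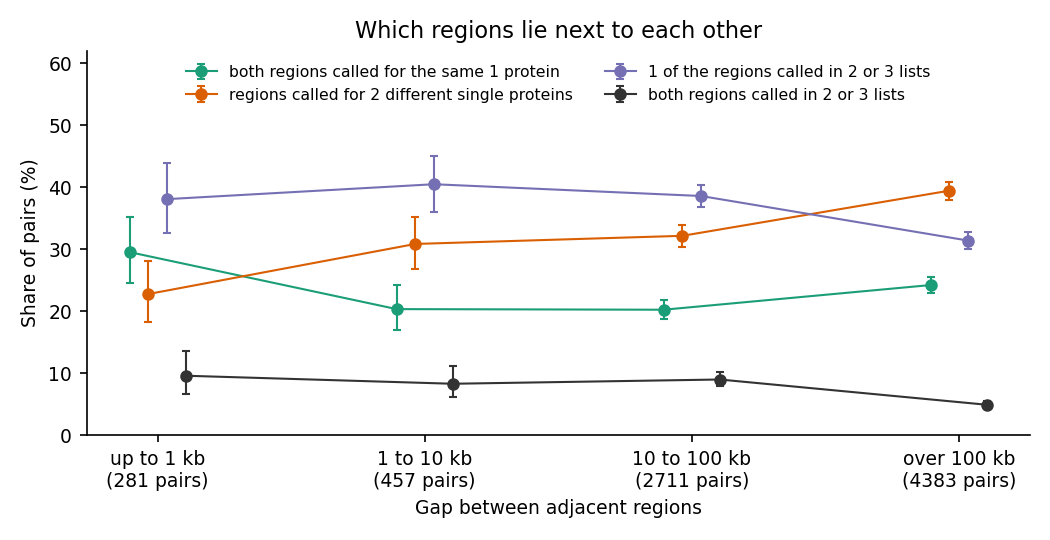
Share of pairs of adjacent regions (vertical axis, %) by the lists that called the 2 regions, for 4 ranges of the gap between them; points are shares, bars 95% Wilson intervals, and lines only join the points of a kind. Pairs of the same single protein lead pairs of different single proteins within 1 kb (29.5% against 22.8%), and the order is the opposite at each greater distance.

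Seen from a region of E2F3B alone, 51.9% of the neighbours within 1 kb were again E2F3B alone (140 of 270, interval 45.9 to 57.7). At 1 to 10 kb it was 32.7% (interval 27.8 to 38.0), and at 10 to 100 kb 35.0%. Among all regions with a neighbour within 1 kb, E2F3B alone made up 47.8% (interval 43.6 to 52.0), which met the interval of its neighbours. With the nearest region at 1 to 10 kb it made up 34.6%, and at 10 to 100 kb 35.2%. A preference of these regions for their own kind was thus not separated from their frequency. For regions of E2F1 alone, neighbours of E2F1 alone numbered 26 of 104 within 1 kb (interval of the share 17.7 to 34.1%), 70 of 235 at 1 to 10 kb (24.3 to 35.9%) and 332 of 1328 at 10 to 100 kb (22.7 to 27.4%). The share of E2F1 neighbours thus had intervals that met at all 3 distances. For regions of E2F3A alone, 0 of 27 neighbours within 1 kb were E2F3A alone, a count that allows a share of up to 11.1%. At 1 to 10 kb it was 10 of 94 (10.6%, interval 5.88 to 18.5) and at 10 to 100 kb 14.7% (interval 12.1 to 17.6). Regions of all 3 proteins had a neighbour with E2F3B in 82.5% of cases within 1 kb (52 of 63, interval 71.4 to 90.0), in 66 of 88 cases at 1 to 10 kb (interval of the share 65.0 to 82.9%), which met both other intervals, and in 65.0% at 10 to 100 kb (interval 60.8 to 68.9). Among all regions with a neighbour within 1 kb, E2F3B was called in 75.2% (interval 71.4 to 78.6), which met the interval of these neighbours. Each pair enters the shares of neighbours once for each of its regions.

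Counted per kb of gap and not as shares, the peaks that bordered the gaps were crowded below 1 kb for E2F1 as well as for E2F3B. Within 1 kb, E2F3B peaks faced each other across 96 gaps, against 9.56 per kb from 1 to 10 kb. E2F1 and E2F3B peaks faced each other across 107 gaps within 1 kb, against 19.1 per kb beyond. For 2 E2F1 peaks it was 39 gaps against 10.3 per kb, for E2F3A and E2F3B 22 against 5.33 per kb, and for E2F1 and E2F3A 16 against 5.56 per kb. E2F3A peaks faced each other across 1 gap within 1 kb and 8 gaps from 1 to 10 kb. Across these gaps between merged regions, the crowding below 1 kb thus involved each pair of proteins except E2F3A with itself. For that pair the counts were too small to compare. In the E2F3A list taken alone, which also counts peaks inside 1 merged region, 20 pairs lay within 1 kb. From 1 to 10 kb there were 4.22 per kb.

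Clusters brought together proteins that had not been called at the same position. Of the 642 clusters, 145 (22.6%) held peaks of 1 list, 322 (50.2%) of 2 lists and 175 (27.3%) of all 3. In 129 of the clusters with 3 proteins, 1 region was itself called in all 3 lists. In the other 46 the proteins were spread over neighbouring regions. Among the clusters with 2 proteins, 173 (53.7%) had no region in which both were called. The sets most frequent among clusters were E2F1 with E2F3B (226 clusters, 35.2%), all 3 proteins (175) and E2F3B alone (98). Clusters of E2F1 alone numbered 42, and those of E2F3A alone 5. A cluster holds more regions than an isolated site, so a larger number of proteins per cluster is built in.

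When a cluster was counted as 1 locus, more sites were shared between lists. E2F3B lay in the region itself for 43.5% of the 3783 regions with an E2F1 peak and in the same locus for 49.0%. From the side of the 4613 regions with E2F3B, E2F1 went from 35.6% to 42.4%, a gain of 310 regions. For the 1984 regions with E2F3A, the share with E2F3B went from 41.7% to 46.1%, and that with E2F1 from 35.2% to 39.6%. The share with E2F3A went from 18.5% to 22.1% of regions with E2F1 and from 17.9% to 22.6% of those with E2F3B. The gains lay between 3.65 and 6.72 points. A locus includes the region itself, so each share could only stay or rise. A gain to be had from this alone was not computed.

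With all 3 lists and the 10 kb limit, clustered regions were of about the same width as isolated ones. The median was 457 bp (quartiles 336 and 639 bp) against 440 bp (333 and 614 bp). Within a protein set the difference went both ways. Regions of E2F1 alone had a median of 596 bp in clusters and 561 bp when isolated, whereas regions of all 3 proteins had 764 against 814 bp and those of E2F1 and E2F3B 680.5 against 726.5 bp. Regions of E2F3B alone measured 338 and 337 bp, and those of E2F3A alone 335 and 331 bp. The difference over all regions, 17 bp (interval -5.47 to 39.8), turned to -10 bp without the E2F3A list and to -2 bp when neighbours were counted within 1 kb. These intervals included 0, as in 9 of the 14 alternatives. In the others clustered regions were wider. The difference was 83 bp with lists of equal length (interval 28.4 to 114) and 53 bp without E2F3B (32.7 to 78.1). It was 33 bp with merging within 500 bp, 31 bp within 1 kb, and 28 bp with neighbours within 20 kb. Several peaks of 1 list in the same merged region were no more frequent in clusters (15 of 1380 regions, 1.09%, interval 0.660 to 1.79) than among isolated regions (82 regions, 1.27%, interval 1.02 to 1.57).

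In the 76 clusters of 3 or more regions, E2F3B was called in 181 of 248 regions (73.0%, interval 67.1 to 78.1), against 65.5% of regions in clusters of 2 (interval 62.6 to 68.2). Calls in 2 or 3 lists reached 35.1% there (interval 29.4 to 41.2) and 26.9% in clusters of 2 (interval 24.4 to 29.6). In both comparisons the intervals met. Inside these longer clusters, 31.3% of the 96 inner regions (interval 22.9 to 41.1) and 37.5% of the 152 outer regions (interval 30.2 to 45.4) were called in 2 or 3 lists. These intervals met, so no tendency of shared regions to lie in the middle or at the ends was resolved.

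The cluster with the most regions lay on chromosome 10 from 79610694 to 79631246 in mm9, as do all positions given here. Its 7 regions began with a region of E2F1 alone of 653 bp, followed after 70 bp by a region of E2F3B alone of 297 bp. Further regions of E2F3B alone, of 210 and 362 bp, came after gaps of 3973 and 6710 bp. A region of E2F1 and E2F3B from 79626470 to 79627193 and a region of E2F1 alone of 900 bp followed. The last region, from 79630055 to 79631246 (1192 bp), was called in all 3 lists, by an E2F1 peak that covered 1119 bp, an E2F3A peak that covered 561 bp and 2 peaks of E2F3B. E2F3A was thus called at 1 end of this cluster only.

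The longest cluster, on chromosome 13 from 23830376 to 23853846 (23471 bp), was made up of shared regions. Its first 4 regions, of 471, 774, 492 and 714 bp, were each called for E2F1 and E2F3B, at gaps of 550, 5035 and 5920 bp. The fifth, 8350 bp further on, measured 1165 bp and was called in all 3 lists. No region of this cluster was called for a single protein.

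E2F3B dominated the other 2 clusters of 5 regions. On chromosome 4 from 135690557 to 135703963, 4 regions of 275 to 350 bp were called for E2F3B alone and 1 of 438 bp for E2F3A and E2F3B. E2F1 was called nowhere in this cluster. On chromosome 15 from 76020033 to 76036905, a region of 743 bp called in all 3 lists and a region of E2F3A and E2F3B were followed by 3 regions of E2F3B alone, of 402, 376 and 201 bp. Of these, the first and the second were separated by 85 bp.

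Clusters of 4 regions had varied compositions. On chromosome 11 from 70460261 to 70469993, 3 regions of E2F1 alone (447, 540 and 682 bp) enclosed a region of E2F3A alone of 365 bp, and E2F3B was not called. On chromosome 2 from 154386349 to 154396234, E2F3A was called in each of the 4 regions, in 2 of them with E2F3B, in 1 alone, and in the last, of 999 bp, with both other proteins. On chromosome 1 from 88330677 to 88346334, a region of 1766 bp called in all 3 lists lay between regions of E2F3B alone on both sides, the nearer one at 393 bp, and a region of E2F1 alone lay 5771 bp before the first of these. On chromosome 15 from 78756343 to 78778802, E2F1 was called in each of the 4 regions and E2F3A in the first 2. The remaining 2 of the 10 clusters with the most regions both lay on chromosome 2. They ran from 132073283 to 132089237 and from 29918521 to 29933450, and each held E2F1, E2F3A and E2F3B with no region called for all 3.

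**Figure D4:**
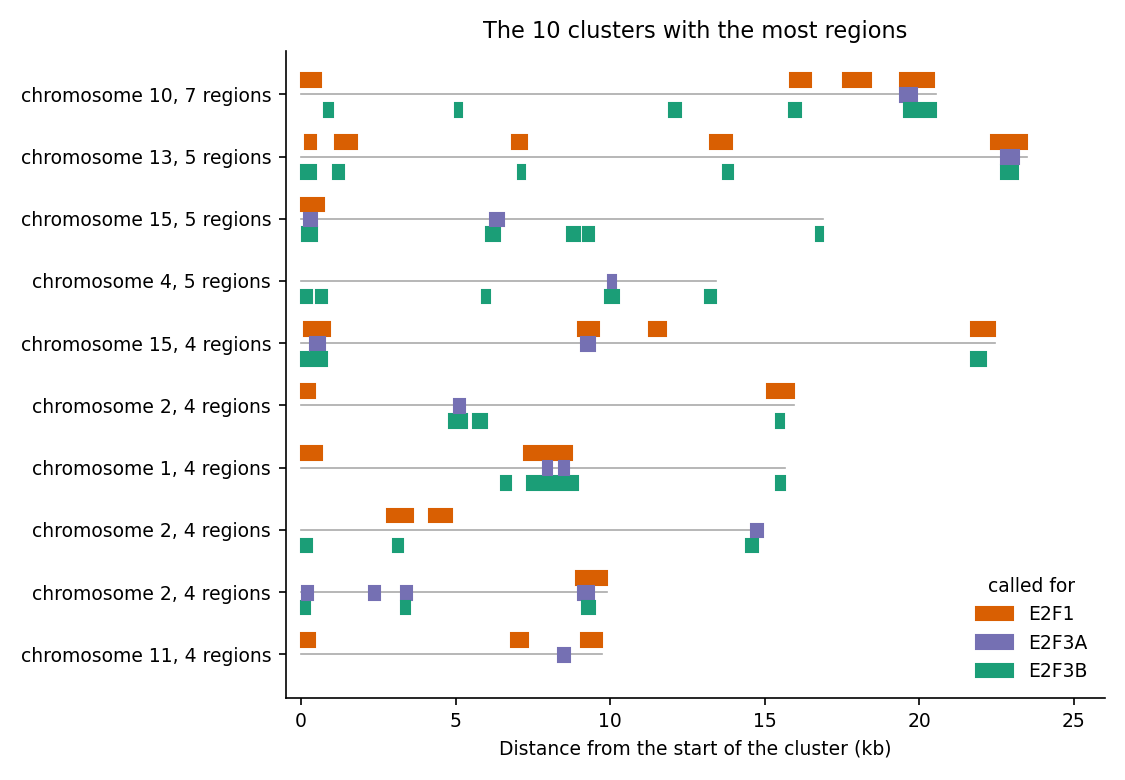
Peaks of E2F1 (orange), E2F3A (purple) and E2F3B (green) in the 10 clusters with the most regions, to scale along the distance from the start of each cluster (horizontal axis, kb); grey lines show the extent of a cluster. The chromosome 13 cluster holds paired E2F1 and E2F3B peaks throughout, the chromosome 4 cluster no E2F1 peak, and the chromosome 11 cluster no E2F3B peak.

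In 8 clusters each region was called in all 3 lists. The one with the shortest gap lay on chromosome 10 from 90632945 to 90645154 and held 3 regions of 737, 1116 and 1571 bp, at gaps of 295 and 8491 bp. On chromosome 11 from 69392471 to 69395598, regions of 558 and 1186 bp were 1384 bp apart. The next 3 lay on chromosome 17. These were from 56175531 to 56180192 with a gap of 2906 bp, from 29400542 to 29406003 with 3395 bp, and from 35997728 to 36003939 with 4009 bp. At least 1 region called in all 3 lists was found in 129 clusters.

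In some clusters the called peaks of different proteins abutted without overlapping. Regions called for 2 different single proteins formed 205 pairs, of which 64 lay within 1 kb. The shortest of these gaps was 1 bp, on chromosome 3, between an E2F1 peak from 96500078 to 96500602 and an E2F3B peak from 96500604 to 96500918. On chromosome 5 an E2F3B peak of 408 bp ended 17 bp before an E2F1 peak of 573 bp (34064499 to 34065071). On chromosome 6 an E2F3A peak of 347 bp lay 21 bp before an E2F1 peak of 1670 bp (51220559 to 51222228). E2F3B peaks lay 28 bp before an E2F1 peak on chromosome 11 (116533179 to 116533772) and 35 bp before one on chromosome 2 (72818115 to 72819069). Such pairs count as 2 regions because no base overlapped, and 4 of these 5 joined E2F1 to E2F3B. This combination was also the most frequent among all such pairs, with 45 of the 64 within 1 kb and 127 of the 205.

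Beyond the clusters already described, the longest spans were those of 3 clusters of 3 regions. The first, on chromosome 10 from 79371018 to 79390046 (19029 bp), held 2 regions of E2F3B alone and 1 of E2F1 and E2F3A. The second, on chromosome 9 from 44134247 to 44152510, held a region of all 3 proteins between one of E2F3B alone and one of E2F1 and E2F3B. In the third, on chromosome 10 from 117229281 to 117246475, a region of E2F1 and E2F3B of 770 bp was followed by 2 of E2F3B alone.

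The share of clustered regions differed between chromosomes. It was highest on chromosome 11, at 111 of 473 regions (23.5%, interval 19.9 to 27.5), followed by chromosomes 5 (21.8%), 17 (21.6%) and 9 (20.1%). It was lowest on X (8 of 133 regions, 6.02%, interval 3.08 to 11.4), chromosome 6 (27 of 311, 8.68%, interval 6.04 to 12.3), chromosome 19 (22 of 216, 10.2%, interval 6.82 to 14.9) and chromosome 18 (12 of 109, 11.0%, interval 6.41 to 18.3). X and 18 were also the chromosomes with the fewest regions per Mb, at 0.834 and 1.37. Chromosome 19 had 3.74 regions per Mb, close to chromosomes 2 (3.71) and 9 (3.76), which had 19.2% and 20.1% of their regions in clusters. Chromosome 15, with the highest density of 5.82 regions per Mb, had 18.2%. Chromosome 12, at 2.13 regions per Mb, had 17.3% in clusters (interval 13.1 to 22.5), and chromosome 6 at 2.14 had 8.68%. The chromosomes with the most regions per Mb (15, 17, 10, 8 and 11) each had a share above the 17.6% of all regions. The intervals of chromosomes 15, 10 and 8 included this value. Some less dense chromosomes also had shares above it, such as 14 (18.8% at 2.87 regions per Mb) and 5 (21.8% at 3.50). By value, denser chromosomes thus tended to have larger shares in clusters, with many intervals that met. The order was not the same throughout, with chromosomes 6 and 19 below others of like density. A correlation between density and share was not computed.

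**Figure D5:**
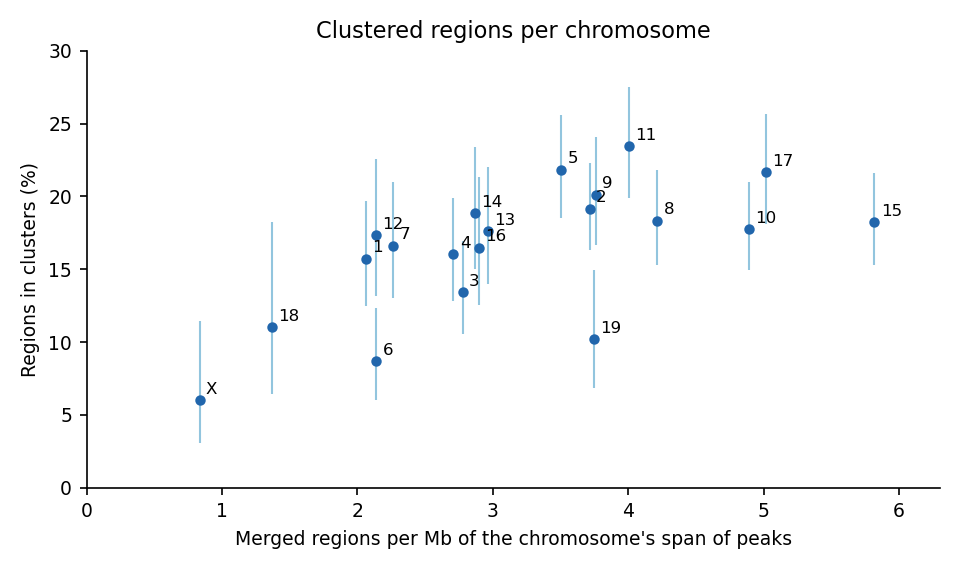
Share of regions in clusters (vertical axis, %) against merged regions per Mb (horizontal axis) for the 20 chromosomes, with 95% Wilson intervals; the Mb are those between the first and the last region of a chromosome. Chromosome 11 is highest at 23.5%, X lowest at 6.02%, and chromosomes 6 and 19 lie below others of like density.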

How the data were processed

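ChIP-seq peak lists of 3 samples were used, called per sample. Bowtie2, SAMtools and the build mm9 are listed in the submitters' processing notes. Peaks are named after the caller MACS in the deposited files. Its version, threshold and control, and the handling of PCR duplicates, are not given in the sources used. Per the labels' protocols, libraries were amplified by 14 cycles of PCR and size-selected at 200 to 300 bp. The lists deposited by the authors give positions in bp and hold no score, fold, p-value or read count. A stricter threshold would remove peaks and with them neighbours. Peak numbers in the lists skip 38 values, and any such peaks were not analysed here. Starts were taken to count from 0, and 1 was added for printing.

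Regions and clusters were computed in Python 3.11.15 (pandas 2.3.3, numpy 2.4.6, Wilson intervals from scipy 1.17.1) and checked against bedtools 2.31.1, which gave the same 1380 clustered regions. In 5 simulated sets with planted clusters, 5 quantities each were tested and 0 differed from the known answers. A gap is the number of bases between the edges of adjacent regions. The members and the list of results were chosen with earlier results of these data known. Named clusters are the 10 with the most regions (ties by span), the 5 with each region called in all 3 lists and the shortest gap, the 5 shortest gaps between regions of different single proteins, and the 3 longest of the rest. Alternatives were neighbour distances of 5 and 20 kb, centre distances, merging within 100 or 500 bp, the 50% or the 1998 widest peaks of each list, leaving out each list, regions below 4 Mb, or clusters of 4 or more regions. Distances and merging at 1 kb were added after seeing the data.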

Additional observations from a re-analysis of the deposited data

How the results depend on the processing

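Over 14 alternatives, 87 of 148 recomputed values stayed within the 95% interval (or, for the number of clusters, within 1.5 times) of the values reported. The share of clustered minus isolated regions called in all 3 lists did so in each of the 11 alternatives that could give it, and that for 2 or 3 lists lay at 2.03 to 6.47 points, with intervals that included 0 for the 50% widest peaks, lists of equal length and without E2F3A. For all 3 lists the interval included 0 with lists of equal length (2.56 points). With neighbours within 5 kb, 12.2% of regions and 12.0% of E2F1, 11.0% of E2F3A and 14.3% of E2F3B peaks were in clusters, with a median gap of 750 bp. Within 20 kb the values were 27.0%, 28.0%, 25.5% and 29.9%, and 6581 bp. With peaks within 100 bp merged they were 16.2% of regions, 16.4% of E2F1 and 18.2% of E2F3B peaks, and 2883 bp; within 500 bp 12.7%, 13.4% (E2F1), 12.8% (E2F3A), 13.5% (E2F3B) and 4474 bp. The 50% widest peaks gave 11.9% of regions in 219 clusters, 13.0%, 11.5% and 12.2% of the peaks, and 2.20 points for regions called in 2 or 3 lists. The 1998 widest peaks gave 11.8% in 246 clusters, 13.2%, 10.3% and 13.4% of the peaks, 63.6% of pairs with a protein in common, and regions 83 bp wider in clusters.

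Without the E2F3B list, 10.8% of regions lay in 261 clusters, with 11.7% of E2F1 and 10.4% of E2F3A peaks, a median gap of 2874 bp, 76.5% of pairs with a protein in common and a width difference of 53 bp. Without E2F1 the median gap was 874 bp and 84.9% of pairs had a protein in common. Without E2F3A the values were 16.5% of E2F1 and 18.6% of E2F3B peaks, 77.2% of pairs, 2.03 points for regions called in 2 lists, and a width difference of -10 bp. Fewer lists leave fewer proteins that 2 regions could differ in. Whether this bears on the shares of pairs with a protein in common was not tested. The alternatives added after seeing the data were neighbours within 1 kb, with 6.93% of regions in 263 clusters, 6.42%, 5.41% and 8.84% of the peaks, a median gap of 250.0 bp, 73.7% of pairs with a protein in common (9.87 points above those up to 100 kb) and a width difference of -2 bp, and merging within 1 kb, with 11.5% in 413 clusters, 12.3%, 11.8% and 12.2% of the peaks and 5114 bp. The cause of these changes was not tested. Centre distances, leaving out regions below 4 Mb (1 cluster) and leaving out clusters of 4 or more regions kept each of the 11 results within these limits. No paired analysis was possible because there was a single library per protein. The lists carry no depth or score, so neighbours below a caller's threshold are missed.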

Other observations

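The distances between clusters are given as values, with no share set beside them. Of the 642 clusters, 123 (19.2%, 95% Wilson interval 16.3 to 22.4) had another cluster within 100 kb. When chromosomes were divided into windows of 1 Mb, 455 windows held at least 1 cluster, 331 held exactly 1, and 17 held 4 or more, of which 6 lay on chromosome 17. The windows named next were chosen after their values were seen.

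The window with the most clusters was on chromosome 8 from 87 to 88 Mb, where 8 clusters held 19 of its 25 regions. Of these 19 regions, 6 were called in 2 or 3 lists (31.6%) and 2 in all 3. On chromosome 17 from 24 to 25 Mb, 6 clusters held 13 of 23 regions, with 4 called in 2 or 3 lists. On chromosome 13 from 23 to 24 Mb, 4 clusters held 13 of the 14 regions of the window, and 11 of these 13 (84.6%) were called in 2 or 3 lists, 5 of them in all 3. E2F1 and E2F3B were both called in each of these 11 regions. The 3 clusters of this window besides the one of 5 regions lay from 23623845 to 23627487, from 23643098 to 23648208 and from 23666063 to 23678818 in mm9, and each held at least 1 region called in all 3 lists. Over all clustered regions, 28.4% were called in 2 or 3 lists (interval 26.1 to 30.8). The chromosome 8 window, at 31.6%, thus lay near this share. The chromosome 13 window lay far above it and held mostly regions shared by E2F1 and E2F3B. It was not the only window with a high share. On chromosome 17, 7 of 7 clustered regions were called in 2 or 3 lists from 35 to 36 Mb. From 29 to 30 Mb it was 6 of 8. Other windows lay below the share, as on chromosome 10 from 98 to 99 Mb with 0 of 8.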
